A study of Mus musculus with 8 samples.

Results

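The genes described here are 38 genes of the unfolded protein response and of protein folding and quality control in the endoplasmic reticulum (ER), taken from a list of symbols. An Affymetrix probe set that names only 1 gene was found for 36 of them, out of 29915 genes measured in this way. Manf and Pdia4 are not analysed here, because their probe sets carry several gene symbols. RNA came from long-term haematopoietic stem cells (LT-HSC) of mouse bone marrow, sorted as Lin- cKit+ Sca+ Flk2- CD48- CD150+ cells. The donors were wild-type (WT) mice and mice of genotype CD169DTR/+ (CD169-DTR below), in which 1 allele of Siglec1, the gene of the macrophage protein CD169, drives the diphtheria toxin receptor. Mice of both genotypes received diphtheria toxin, which removes CD169+ macrophages in the CD169-DTR mice, so the WT controls also carry the toxin treatment. At 72 h after the toxin the mice were given 2 Gy of total body irradiation or a sham treatment, and LT-HSC were isolated 5 days later. The 4 groups are non-irradiated WT, irradiated WT, non-irradiated CD169-DTR and irradiated CD169-DTR, with 2 arrays each from distinct experiments. The labels give neither the age of the mice nor whether cells of several mice were pooled, so p values measure the spread between these arrays.

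The ER folds membrane and secreted proteins with the help of chaperones, and an excess of unfolded protein there starts the unfolded protein response. Its sensors are IRE1 (gene Ern1), PERK (Eif2ak3) and ATF6 (Atf6, with the related Atf6b). IRE1 splices the mRNA of Xbp1 into the form that encodes an active transcription factor, PERK phosphorylates the translation factor eIF2alpha, which lowers protein synthesis and favours translation of ATF4, and ATF6 is cut in the Golgi to release a transcription factor. Their target genes encode chaperones, disulfide isomerases and the machinery that draws misfolded proteins out of the ER for degradation. In blood formation XBP1 is best known for its role in plasma cells, and haematopoietic stem cells are known for a low rate of protein synthesis and for sensitivity to misfolded protein. The arrays measure the amount of RNA of a gene. They give neither the splicing of Xbp1 nor the activity of a sensor, and in sorted cells in bulk fewer cells of a type and less RNA per cell cannot be told apart.

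XBP1 and ATF6 bind the ER stress response element (ERSE), whose letters are CCAAT, then any 9 bases, then CCACG. Promoters from RefSeq (mouse assembly GRCm38.p6), running from 250 bases before to 50 bases after the start of a gene, were at hand for 33 of the 38 genes and were searched on both strands. An exact ERSE was found in 9 of these 33 (27.3%), against 39 of 32851 promoters of all genes (0.119%), or 37 of 27025 genes (0.137%). Of 85 genes with a promoter in a wider list of ER and ATF4 pathway genes, described further on, 1 held it (1.18%). The 33 were listed as genes of this response and of ER folding, so their high share describes the list and tests nothing. The 9 genes encode chaperones of the ER lumen (Hspa5, Hsp90b1, Dnajc3, Creld2), the lectin chaperones calreticulin and calnexin (Calr, Canx), a disulfide isomerase (Pdia6) and components of ER degradation (Syvn1, Derl3). The matches are shown because these genes share an element that is rare among promoters, and the expression of this group is described further on. Each is written 5′ to 3′ on the strand that reads CCAAT first, with 15 bases on either side, and capitals mark the fixed letters of the element.
Hspa5, match at chr2:34772025-34772043, + strand: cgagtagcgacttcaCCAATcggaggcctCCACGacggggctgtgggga
Hsp90b1, match at chr10:86705638-86705656, - strand: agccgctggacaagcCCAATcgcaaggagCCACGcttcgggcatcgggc
Hsp90b1, match at chr10:86705533-86705551, + strand: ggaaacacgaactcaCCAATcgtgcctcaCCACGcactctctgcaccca
Dnajc3, match at chr14:118937827-118937845, + strand: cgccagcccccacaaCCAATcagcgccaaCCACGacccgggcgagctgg
Creld2, match at chr15:88819520-88819538, - strand: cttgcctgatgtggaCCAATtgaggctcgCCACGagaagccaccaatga
Calr, match at chr8:84847075-84847093, + strand: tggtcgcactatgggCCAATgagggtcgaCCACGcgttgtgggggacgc
Canx, match at chr11:50325800-50325818, - strand: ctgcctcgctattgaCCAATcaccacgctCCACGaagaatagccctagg
Pdia6, match at chr12:17266491-17266509, + strand: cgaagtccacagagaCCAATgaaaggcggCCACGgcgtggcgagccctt
Syvn1, match at chr19:6046532-6046550, + strand: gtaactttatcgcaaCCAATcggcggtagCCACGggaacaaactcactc
Derl3, match at chr10:75893242-75893260, - strand: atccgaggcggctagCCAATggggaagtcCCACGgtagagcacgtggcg

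Herpud1, which encodes a membrane protein of ER degradation, held the related ERSE-II element (ATTGG, any 1 base, CCACG), found in 12 of the 32851 promoters (0.0365%). The CARE element (letters TGATGNAA), to which ATF4 binds with its partners, was found in 3.97% of all promoters and 4.51% of all genes. It was found in 10 of the 85 genes of the wider list (11.8%) and in 4 of the 33 (12.1%). The 4 are Trib3, Asns, Chac1 and Herpud1, and Asns, Chac1 and Trib3 are known targets of ATF4. The UPRE element (letters TGACGTGG) was found in 0 of the 33, in 6 of the 85 genes of the wider list (7.06%) and in 0.676% of all promoters. The matches of Herpud1, Asns and Chac1 are written in the same way.
Herpud1, ERSE-II at chr8:94386377-94386387, + strand: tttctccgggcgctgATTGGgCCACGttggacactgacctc
Asns, CARE at chr6:7693225-7693232, - strand: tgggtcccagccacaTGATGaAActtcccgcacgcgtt
Chac1, CARE at chr2:119351049-119351056, - strand: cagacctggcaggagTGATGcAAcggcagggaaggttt

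Xbp1 and Herpud1 are the genes whose irradiated arrays lay below the non-irradiated arrays in both genotypes, so the 250 bases before their starts are shown whole. Capitals mark CCAAT and CCACG on either strand (ATTGG and CGTGG on the strand shown). The Herpud1 stretch holds CCAAT 2 times and CCACG 2 times, and the Xbp1 stretch holds neither, which says only that these letters are not in this window.
Xbp1, chr11:5520391-5520640, + strand: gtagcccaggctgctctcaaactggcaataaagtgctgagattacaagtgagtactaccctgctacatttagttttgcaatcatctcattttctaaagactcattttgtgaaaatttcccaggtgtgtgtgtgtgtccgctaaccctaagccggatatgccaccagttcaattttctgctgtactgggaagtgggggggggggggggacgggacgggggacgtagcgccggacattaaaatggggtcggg
Herpud1, chr8:94386179-94386428, + strand: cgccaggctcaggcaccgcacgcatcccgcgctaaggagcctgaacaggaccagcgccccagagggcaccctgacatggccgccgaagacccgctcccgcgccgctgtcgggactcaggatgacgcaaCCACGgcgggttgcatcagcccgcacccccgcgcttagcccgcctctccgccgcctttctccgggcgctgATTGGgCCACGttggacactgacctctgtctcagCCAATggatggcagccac

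**Figure D1:**
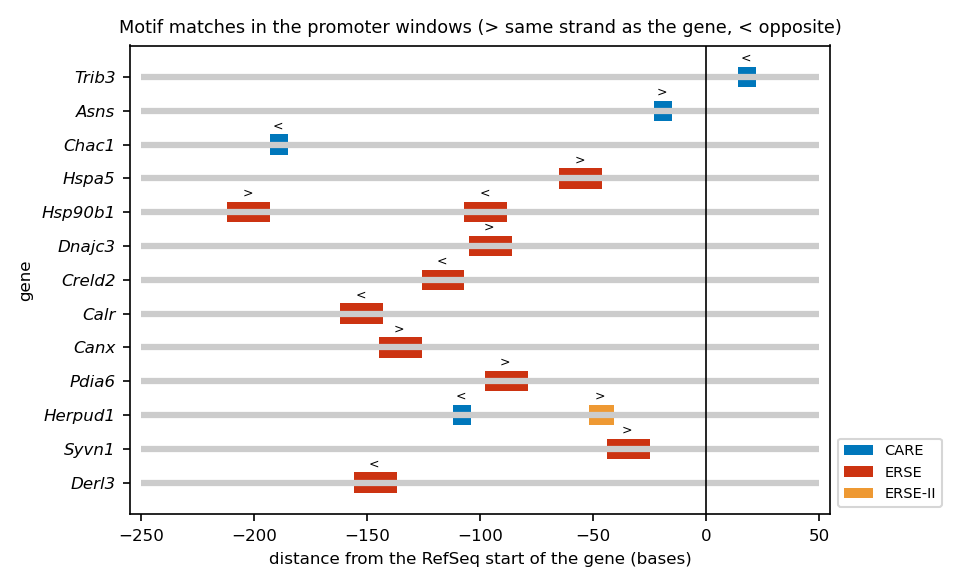
Positions of the exact ERSE, ERSE-II and CARE matches in the promoter windows of 13 of the listed genes; the horizontal axis is the distance in bases from the RefSeq start, each grey line is 1 window, and the mark above a match gives its strand. The ERSE matches of the 9 genes all lie before the start, and the Trib3 match of CARE lies after it.

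The values are log2 RMA values, and 1 log2 unit is a 2-fold difference. Array medians lay between 4.76 and 4.93, and the Pearson r of the replicates across probe sets was 0.99 to 0.994. Irradiated WT replicate 1 and irradiated CD169-DTR replicate 2 lay farthest from the other arrays in a principal component analysis. Cdkn1a, a target of p53 after radiation damage, matched the irradiation labels, with 7.86 to 9.79 on the 4 non-irradiated and 13.06 to 13.41 on the 4 irradiated arrays. Without irradiation it read 7.86 and 8.39 in WT and 9.79 and 9.34 in CD169-DTR, which is 1.44 log2 higher on average. Siglec1 lay between 3.86 and 4.12 on all 8 arrays, which is no check of macrophage depletion in sorted stem cells. Kit, on which the gate relied, was bright on all arrays (14.25 to 14.93). RNA of Cd48, whose protein the gate excludes, was not low either (10.98 to 13.47), and Flt3, also excluded, lay between 5.85 and 8.22. All 3 read differently on irradiated and non-irradiated arrays in both genotypes, as given with the marker lists further on.

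Among the 36 measured genes the range of a gene over the 8 arrays had a median of 0.815 log2, and the spread within groups had a median SD of 0.233, against 0.182 over all 30294 tested probe sets. Asns (range 2.04), Ddit3 (1.90) and Sdf2l1 (1.45) ranged most widely, and their SD within groups lay above the 96th percentile of tested probe sets. Xbp1 differed from these in its spread. Its range of 1.23 went with an SD within groups of 0.13, at percentile 32.2. Trib3, Chac1 and Derl3 were dim, with means under the median of all tested probe sets.

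The comparison of irradiated with non-irradiated WT LT-HSC asks which of these genes differed 5 days after 2 Gy in mice that keep their CD169+ macrophages. Xbp1 was the gene with the clearest difference, 1.97-fold lower after irradiation. The 3 sensors beside Atf6b, together with Herpud1, Pdia6 and Edem3, were also lower on average by 0.31 log2 or more, while the ER chaperones Hspa5 and Hsp90b1 and the factor Atf4 lay within 0.2 log2 of the controls. None of the 36 passed an adjusted p under 0.05 in limma, where 3 of 30294 probe sets passed (0.0099%), 2 higher (0.0066%) and 1 lower (0.0033%). At an unadjusted p under 0.05 only Xbp1 was called, 1 of 36 genes (2.78%), against 7.81% of all probe sets. The difference was below 0 for 23 of the 36 genes (63.9%) and above 0 for 13, against 35% and 64.2% of all tested probe sets. Their median difference was -0.108 log2, against 0.075 for all tested probe sets. Among the brighter probe sets, those past percentile 40 by mean, as nearly all of these genes are, 44.8% lay below 0 and the median was 0.03. This split depends on the scaling of the arrays. With cyclic loess 23 of the 36 genes were below 0, against 49.7% of all probe sets, and with median centring 27 were, against 57.4%, where the median of all probe sets moved from 0.075 to -0.04.

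Xbp1 read 10.97 and 11.19 log2 on the non-irradiated WT arrays and 9.96 and 10.24 on the irradiated ones. Both irradiated arrays therefore lay below both controls. The limma difference was -0.98 ± 0.15 log2 (SE, n = 2 arrays a group), a 1.97-fold lower value with a 95% interval of 1.55 to 2.51 (limma adjusted p = 0.301). It ranked 35 by p among all probe sets. Over 18 other settings the difference lay between -1.12 and -0.84, with an adjusted p of 0.202 or more.

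Of the sensors, Ern1 read 9.69 and 9.24 without irradiation and 9.0 and 9.31 after it in WT, and the groups overlapped. Eif2ak3 read 6.55 and 6.50 without irradiation and 6.12 on both irradiated WT arrays, without overlap, a difference of -0.41 ± 0.21 (limma adjusted p = 0.666). Atf6 read 10.13 and 10.46, then 9.10 and 10.14, a difference of -0.67 ± 0.34 (limma adjusted p = 0.661) in which irradiated replicate 1 was the low array. Atf6b, which encodes a relative of ATF6, read 7.00 and 6.64, then 6.70 and 6.66. All 4 sensors thus had a lower mean after irradiation in WT, and only the Eif2ak3 arrays did not overlap.

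Herpud1 read 12.36 and 12.08 on the non-irradiated WT arrays and 11.79 and 11.80 on the irradiated ones. These groups did not overlap, and the difference was -0.43 ± 0.21 log2 (limma adjusted p = 0.659). Atf4, the transcription factor downstream of PERK, read 9.12 and 9.0, then 9.05 and 9.21, with overlap. Ddit3, which encodes CHOP, a factor tied to cell death under lasting ER stress, read 9.83 and 8.68, then 9.96 and 9.54, so its controls spanned more than the difference of 0.50 ± 0.54. On the dimmer of its 2 probe sets Ddit3 read 8.76 and 8.25, then 9.10 and 9.32, without overlap (0.71 ± 0.39, limma adjusted p = 0.672). Hspa5, the gene of the main ER chaperone BiP, read 11.45 and 11.35, then 11.05 and 11.53, and the groups overlapped.

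By role, the WT groups did not overlap in 15 of the 36 genes, 7 higher and 8 lower after irradiation (19.4% and 22.2%), against 31.4% and 13.2% of all tested probe sets and 25.1% and 18.8% of the brighter ones. The 8 lower genes were Eif2ak3, Xbp1, Dnajb9, Pdia6, P4hb, Herpud1, Syvn1 and Edem3. Dnajb9 encodes a J-domain cochaperone of BiP, P4hb a disulfide isomerase, Syvn1 the ubiquitin ligase HRD1 of ER degradation and Edem3 a lectin-like protein that marks misfolded glycoproteins. The 7 higher genes were Chac1, Dnajc3, Calr, Pdia3, Edem1, Derl1 and Derl3, with differences between 0.14 and 0.29 log2. Chaperones were split, 3 of 7 higher and 4 lower (5 lower with median centring, as Creld2 changes sign), with a median of -0.11, and the 10 genes of ER degradation had a median of -0.065. The targets of ATF4 and CHOP, 4 of 5 of which were lower, ranged from -0.43 ± 0.50 for the asparagine synthetase gene Asns to 0.14 ± 0.26 for Chac1. None of these single differences passed the adjustment.

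**Figure D2:**
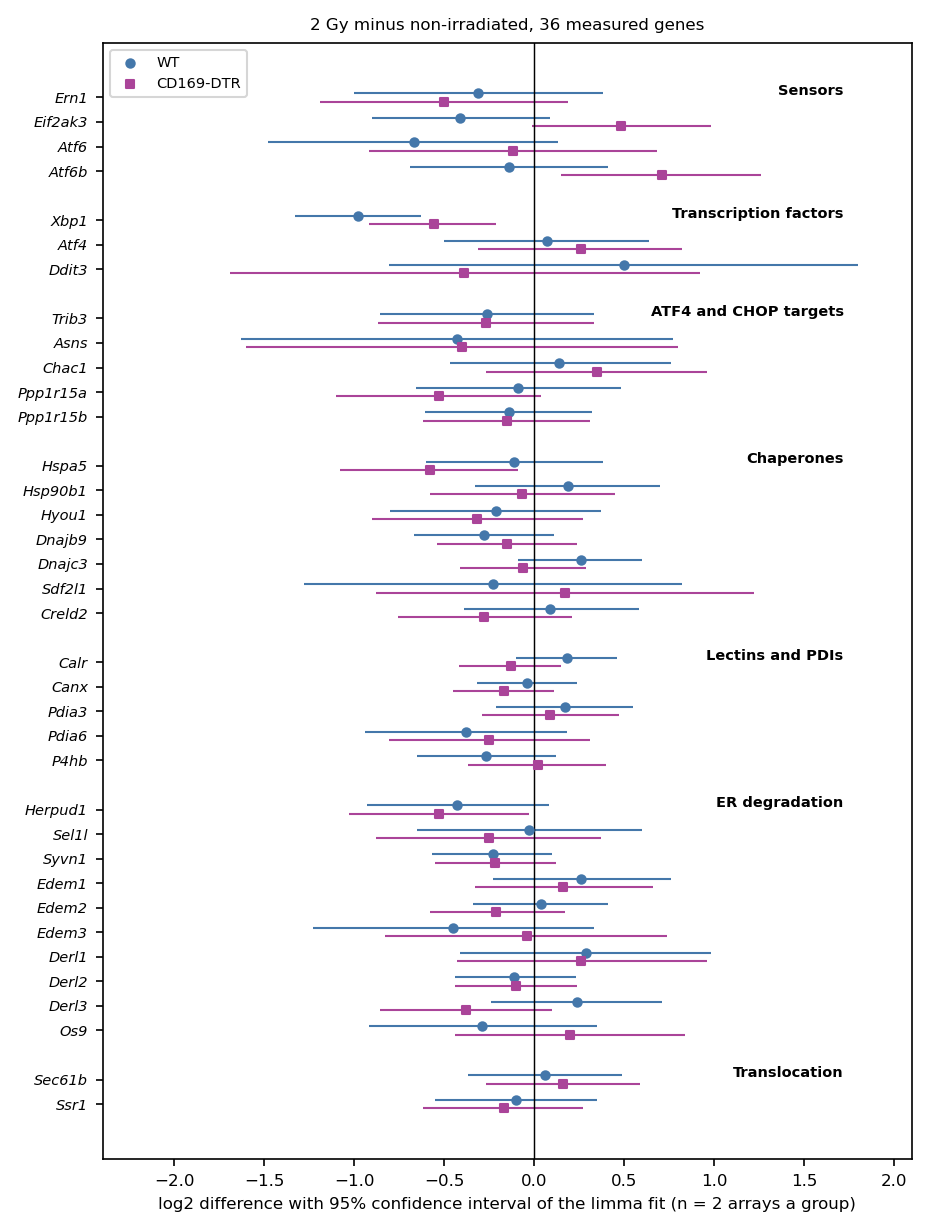
Log2 difference between irradiated and non-irradiated LT-HSC for the 36 measured genes, grouped by role; points are limma estimates, circles WT and squares CD169-DTR, bars their 95% confidence intervals (2 arrays a group), and the vertical line marks no difference. The intervals of Xbp1 lie below 0 in both genotypes, while those of Eif2ak3 and Atf6b are centred on different sides of 0 in WT and CD169-DTR.

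In CD169-DTR mice the same comparison asks what differed after 2 Gy where CD169+ macrophages had been removed. Xbp1 was again lower, 1.48-fold, and Hspa5 and Herpud1 were lower by more than 0.5 log2, whereas the sensor gene Atf6b was higher by 0.71 log2. No gene passed an adjusted p under 0.05 in limma, here or among all probe sets (0%). At an unadjusted p under 0.05, 4 of the 36 were called (11.1%), against 6.77% of all probe sets. Of these, 1 was higher (Atf6b, background 3.24%) and 3 lower (Xbp1, Hspa5 and Herpud1, background 3.53%, or 5.36% of the brighter probe sets). The difference was below 0 for 25 of the 36 genes (69.4%) and for 42.4% of all probe sets (47.3% of the brighter ones), with medians of -0.152 and 0.035 over the 36 genes and all probe sets. Without irradiated CD169-DTR replicate 2, or without both 2 Gy arrays that lay farthest from the others, 22 of 36 were below 0 and the median was -0.0675. Without non-irradiated CD169-DTR replicate 2, 20 were below 0, against 48.8% of all probe sets, and the median was -0.0425.

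Xbp1 read 10.94 and 10.91 on the non-irradiated CD169-DTR arrays and 10.42 and 10.30 on the irradiated ones, again without overlap. The difference was -0.56 ± 0.15 log2, 1.48-fold lower with an interval of 1.16 to 1.89 (limma adjusted p = 0.595). Its unadjusted p stayed under 0.05 in all 18 other settings, with differences between -0.62 and -0.50. The difference between the genotypes in this response was 0.42 ± 0.21 log2 (limma adjusted p = 0.947), so a smaller response in CD169-DTR mice was not shown. As the average of both genotypes, Xbp1 differed by -0.77 ± 0.10 log2, 1.71-fold lower with an interval of 1.44 to 2.03 (limma adjusted p = 0.209, rank 22).

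Hspa5 read 11.67 and 11.96 on the non-irradiated CD169-DTR arrays and 11.38 and 11.08 on the irradiated ones. The groups did not overlap, and the difference was -0.58 ± 0.21 log2 (limma adjusted p = 0.649). Without non-irradiated replicate 2 it was -0.44, with an unadjusted p above 0.05. Herpud1 read 12.91 and 12.45, then 12.34 and 11.96, without overlap, a difference of -0.53 ± 0.21 (limma adjusted p = 0.707). It kept an unadjusted p under 0.05 in 9 of 18 other settings. Averaged over the genotypes, Herpud1 differed by -0.48 ± 0.15 log2 (limma adjusted p = 0.453) and Hspa5 by -0.35 ± 0.15 (limma adjusted p = 0.54).

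Among the sensors, Atf6b read 6.10 and 6.64 on the non-irradiated CD169-DTR arrays and 6.89 and 7.26 on the irradiated ones, without overlap (0.71 ± 0.23 log2, limma adjusted p = 0.628). Eif2ak3 read 6.30 and 6.48, then 6.56 and 7.19, also without overlap (0.48 ± 0.21, limma adjusted p = 0.75). Both were therefore higher on the irradiated arrays, where irradiated WT arrays were level or lower. Ern1 read 9.67 and 9.14, then 9.21 and 8.60, and Atf6 read 9.97 and 9.89, then 10.00 and 9.62, each with overlap.

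Atf4 read 8.67 and 9.41 on the non-irradiated and 9.24 and 9.35 on the irradiated CD169-DTR arrays, so both irradiated values lay between the controls. Ddit3 read 9.15 and 9.24, then 9.56 and 8.06, so the irradiated arrays spanned the controls. On its dimmer probe set Ddit3 read 8.13 and 8.48, then 8.57 and 7.39, and spanned them as well. Ppp1r15a, the gene of the phosphatase subunit GADD34 that reverses eIF2alpha phosphorylation, read 6.62 and 6.04, then 5.92 and 5.68, without overlap (-0.53 ± 0.24, limma adjusted p = 0.768).

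Over all roles the CD169-DTR groups did not overlap in 10 of 36 genes, 2 higher and 8 lower after irradiation (5.56% and 22.2%), against 17.8% and 13.4% of all probe sets and 17% and 16.8% of the brighter ones. The 2 higher genes were the sensors just named. The 8 lower ones were Xbp1, Ppp1r15a, Hspa5, Calr, Canx, Herpud1, Edem2 and Derl3. Of the 7 chaperones 6 had a lower mean after irradiation, but without non-irradiated replicate 2 it was 3 of 7, with a median of 0. In both genotypes alike, the irradiated arrays lay below their controls for 2 of the 36 genes, Xbp1 and Herpud1, and above them for 0. The shares were 3.05% and 6.36% of all probe sets, and 4.67% and 5.42% of the brighter ones.

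Some genes of the gate and of stem cells separated irradiated from non-irradiated arrays, as Xbp1 did. Of the 8 genes in the gate and LT-HSC list, 2 were higher and 3 lower without overlap in WT. Those higher were Slamf1 (0.73 ± 0.45) and Procr (0.24 ± 0.15). In CD169-DTR 1 was higher, Mecom (0.28 ± 0.18), and 5 were lower, Procr among them. Over all probe sets 31.4% were higher and 13.2% lower in WT, and 17.8% and 13.4% in CD169-DTR. Kit read 14.93 and 14.89, then 14.36 and 14.33 in WT, and 14.77 and 14.66, then 14.25 on both arrays in CD169-DTR. It was lower without overlap in both genotypes, by 0.51 log2 on average (-0.51 ± 0.08, limma adjusted p = 0.209). The stem cell gene Hlf was lower without overlap in both as well (-0.55 ± 0.09 on average, limma adjusted p = 0.235). Cd48 read 11.24 and 10.98, then 12.95 and 12.14 in WT, and 11.05 and 12.54, then 13.47 and 13.00 in CD169-DTR, which is 2.70-fold and 2.71-fold higher after irradiation without overlap. Flt3 went the other way, 2.01-fold lower in WT and 3.1-fold lower in CD169-DTR, again without overlap. None of Kit, Hlf, Cd48 and Flt3 passed the adjustment.

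The means of several lists of cell markers differed between irradiated and non-irradiated arrays too. Stress and early response genes (8 of 9 measured) read 9.18 and 8.70, then 8.23 on both arrays in WT, and 8.53 and 8.65, then 7.63 and 7.97 in CD169-DTR. This was the list whose mean was lower without overlap in both genotypes, as Xbp1 was. Its members did not all follow the mean. Without overlap, 5 of the 8 were lower and 0 higher in WT, and 5 lower and 1 higher in CD169-DTR (Atf3, 0.25 ± 0.12). Nr4a1 (0.42 ± 0.39) and Atf3 (0.12 ± 0.12) had higher means in WT, and Ier2 (0.15 ± 0.16) in CD169-DTR. The shares of all probe sets are those given for the gate genes. The 13 genes of neutrophils and granulocyte-monocyte progenitors, all measured, had a mean of 7.22 and 8.01 on the non-irradiated and 9.02 and 9.73 on the irradiated WT arrays, and 11 of the 13 were higher without overlap. In CD169-DTR the list mean overlapped (8.38 and 9.02, then 8.89 and 8.23), but its members went different ways. The progenitor genes Ctsg (1.08 ± 0.48) and Ms4a3 (0.83 ± 0.56) were higher there without overlap. Prtn3, also a progenitor gene, was lower without overlap (-0.21 ± 0.20), and Elane (0.07 ± 0.51) and Mpo (0.22 ± 0.54) overlapped. The neutrophil granule genes Ngp (-1.23 ± 1.35) and Camp (-1.13 ± 1.32) had lower means with overlap. Plasma and B cell markers (11 of 13 measured, 7 of them dim) read 5.31 and 5.06, then 5.63 and 5.65 in WT, without overlap, and 5.11 and 6.24, then 5.80 and 5.48 in CD169-DTR, with overlap.

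Other list means separated in 1 genotype. In WT the mean of the erythroid list (5 of 8 measured) was lower, with 8.43 and 8.14, then 7.25 and 8.05. Its genes went different ways. Car1 (-3.04 ± 1.66) and Klf1 (-0.83 ± 0.43) were lower without overlap. Epor (0.41 ± 0.35), Tfrc (0.19 ± 0.56) and Gata1 (0.08 ± 0.16) had higher means. The monocyte, macrophage and dendritic list was higher in WT, with 5.93 and 5.92, then 6.49 and 6.25. Of its 9 genes, 5 were higher and 1 lower without overlap. The lower one was Cd68 (-0.56 ± 0.39), and the largest difference was that of Ly6c2 (1.96 ± 0.40). In CD169-DTR the mast cell, basophil and eosinophil list (6.81 and 7.52, then 8.84 and 8.54) and the megakaryocyte list (9.68 and 9.90, then 10.76 and 10.31) were higher. Without overlap, 4 of 7 and 3 of 6 of their genes were higher and 0 lower. Epx (-0.45 ± 0.81) and Itga2b (-0.14 ± 0.22) had lower means. The T and NK cell list and the cycling list were higher there by 0.23 and 0.28 log2. The list of gate and LT-HSC genes was lower there, with 9.92 and 9.71, then 9.68 and 9.50. The part of these genes and lists in the results was not tested.

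**Figure D3:**
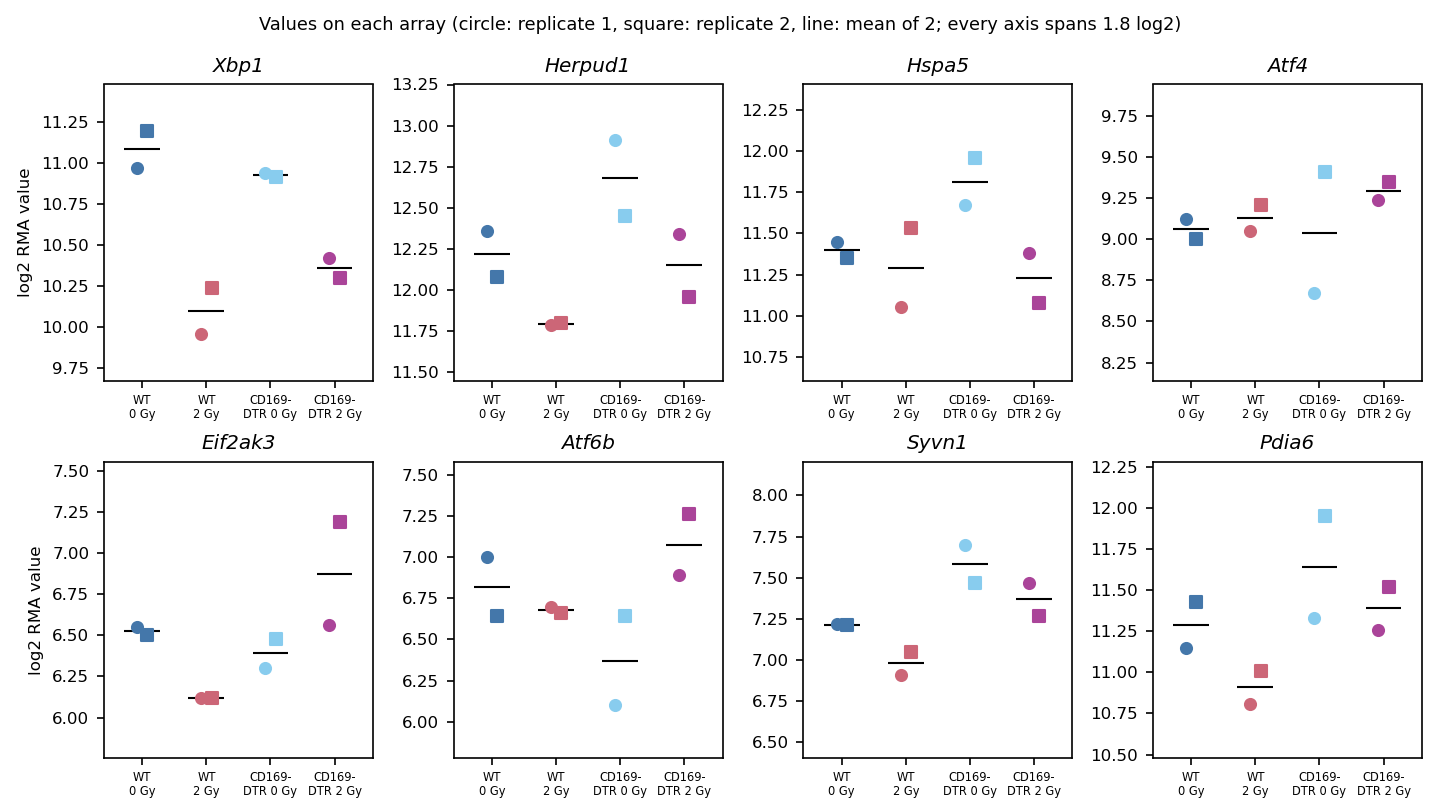
Log2 RMA values on each of the 8 arrays for Xbp1, Herpud1, Hspa5, Atf4, Eif2ak3, Atf6b, Syvn1 and Pdia6; circles are replicate 1, squares replicate 2, lines the mean of 2 arrays, and every vertical axis spans the same 1.8 log2. The irradiated arrays of Xbp1 and Herpud1 lie below their non-irradiated arrays in both genotypes, and all 4 CD169-DTR arrays of Syvn1 lie above the WT arrays of the same dose.

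The comparison of the genotypes without irradiation asks whether the loss of CD169+ macrophages went with a difference in these genes by itself. Syvn1 and Herpud1 were higher in CD169-DTR, by 0.37 and 0.46 log2, as were Hspa5 and Creld2 by about 0.4 log2, while all 4 sensors and all 3 transcription factors had lower means. No gene passed an adjusted p under 0.05 in limma (0% of all probe sets), and 1 of 36 had an unadjusted p under 0.05 (2.78%, background 4.38%). Means were higher in CD169-DTR for 20 of the 36 genes and lower for 16, against 57% and 41.8% of all probe sets, with medians of 0.0375 and 0.03. The groups did not overlap for 4 higher and 4 lower genes (11.1% each). This compares with 19.1% and 11.9% of all probe sets and 19.6% and 13.9% of the brighter ones. On the same arrays the neutrophil and progenitor list was higher in CD169-DTR without overlap, for its mean (8.38 and 9.02 against 7.22 and 8.01) and for 9 of its 13 genes, among them S100a8 (2.62 ± 1.13) and Cebpe (0.58 ± 0.23). The basophil gene Mcpt8 was lower (-3.62 ± 1.03), but its list mean overlapped, and Epx and Prg2 of that list had higher means. The stress and early response list was lower without overlap, by 0.35 log2 in the mean. So were the gate and LT-HSC list (-0.19, with 4 of 8 genes lower without overlap), the megakaryocyte list (-0.29) and the T and NK cell list (-0.21). In the megakaryocyte list and in the T and NK cell list, 2 genes were higher and 1 lower without overlap. After 2 Gy the neutrophil list mean was lower in CD169-DTR without overlap, with 8.89 and 8.23 against 9.02 and 9.73. The monocyte, macrophage and dendritic list (-0.37) and the stress and early response list (-0.43) were lower without overlap as well. The mast cell, basophil and eosinophil list was higher without overlap (0.52). The part of these markers in the genotype differences was not tested.

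Syvn1 read 7.22 and 7.21 on the non-irradiated WT arrays and 7.70 and 7.47 on the CD169-DTR ones, without overlap. The difference was 0.37 ± 0.14 log2 (limma adjusted p = 0.999). After 2 Gy, Syvn1 read 6.91 and 7.05 in WT and 7.47 and 7.27 in CD169-DTR, again without overlap (0.39 ± 0.14, limma adjusted p = 0.648). Averaged over both doses, the gene was 1.3-fold higher in CD169-DTR, with an interval of 1.11 to 1.53 (limma adjusted p = 0.72). The average difference lay between 0.32 and 0.44 log2, with an unadjusted p under 0.05, in all 17 other settings.

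Herpud1 also had higher CD169-DTR than WT arrays at each dose without overlap, with an average difference of 0.41 ± 0.15 log2 (limma adjusted p = 0.782). Pdia6 read 11.15 and 11.43 in non-irradiated WT, 11.33 and 11.95 in non-irradiated CD169-DTR, 10.81 and 11.01 in irradiated WT and 11.26 and 11.52 in irradiated CD169-DTR. Its groups overlapped without irradiation and not after it, and the average difference was 0.42 ± 0.16 (limma adjusted p = 0.787). Over 17 other settings the average difference lay between 0.29 and 0.52 log2 for Herpud1 and between 0.26 and 0.57 for Pdia6, wider ranges than that of Syvn1. Syvn1, Herpud1 and Pdia6, 3 of 36 genes (8.33%), were higher in CD169-DTR at an unadjusted p under 0.05 in the average of both doses, and 0 were lower. The shares were 3.75% and 2.58% of all probe sets, and 5.23% and 3.62% of the brighter ones. CD169-DTR arrays lay above WT arrays at both doses for 2 of the 36 genes, Syvn1 and Herpud1 (5.56%, background 3.43%, or 4.31% of the brighter probe sets).

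After 2 Gy the gene of the 36 with the smallest p between the genotypes was Eif2ak3, with 6.12 on both WT arrays and 6.56 and 7.19 on the CD169-DTR arrays. CD169-DTR arrays lay above WT arrays, by 0.75 ± 0.21 log2 or 1.69-fold with an interval of 1.19 to 2.38 (limma adjusted p = 0.619). In this comparison 2 of 36 genes, Eif2ak3 and Syvn1, had an unadjusted p under 0.05 (5.56%, background 7.57%), and 0 passed the adjustment (0%). Means were higher in CD169-DTR for 18 genes and lower for 18, against 45.7% and 53.3% of all probe sets. With median centring 13 were lower, against 38.9% of all probe sets. The groups did not overlap for 10 higher and 3 lower genes (27.8% and 8.33%). This compares with 16% and 18.9% of all probe sets and 19.6% and 18.5% of the brighter ones. The 10 higher genes were Eif2ak3, Atf6b, Xbp1, Atf4, Chac1, Sdf2l1, Pdia6, Herpud1, Syvn1 and Sec61b. Sdf2l1 encodes a partner of ER J-domain proteins and Sec61b a subunit of the channel by which proteins enter the ER. The 3 lower genes were Ppp1r15a, Calr and Derl3. Ddit3 had the largest difference in size among the 36 genes, -0.94 ± 0.54 (limma adjusted p = 0.74), with 9.96 and 9.54 in WT against 9.56 and 8.06 in CD169-DTR. On its dimmer probe set, with 9.10 and 9.32 against 8.57 and 7.39, it was -1.23 ± 0.39 (limma adjusted p = 0.636).

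**Figure D4:**
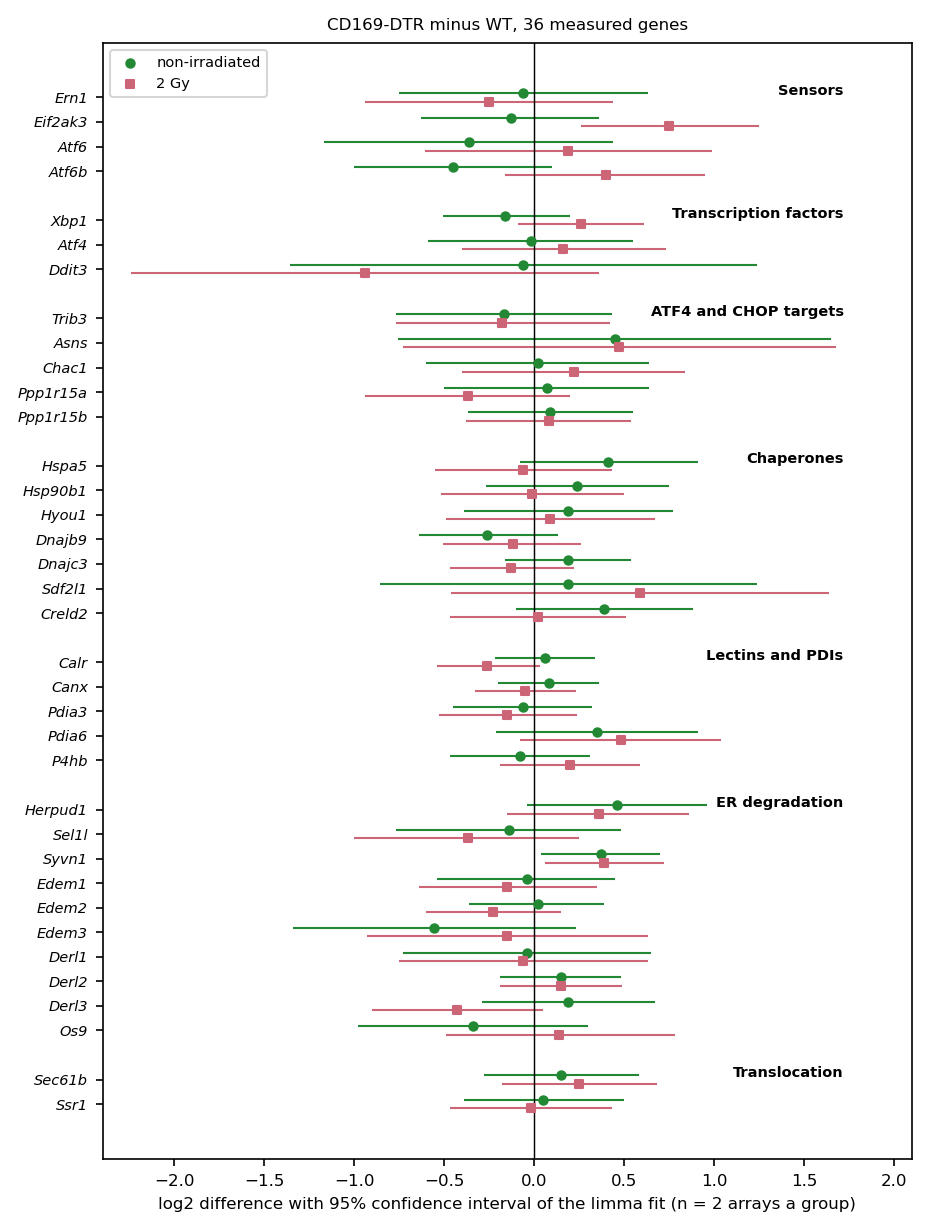
Log2 difference between CD169-DTR and WT LT-HSC for the 36 measured genes, without irradiation (circles) and after 2 Gy (squares); points are limma estimates, bars their 95% confidence intervals (2 arrays a group), and the vertical line marks no difference. Syvn1 lies above 0 at both doses (0.37 and 0.39), and Eif2ak3 only after 2 Gy (0.75).

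Whether the response to 2 Gy itself differed between the genotypes was tested as an interaction. At an unadjusted p under 0.05, 2 of the 36 genes were called (5.56%, background 5.17%, or 6.92% of the brighter probe sets). Both were sensors with a higher response in CD169-DTR (background 2.4%, or 3.53% of the brighter probe sets). Of the 36 genes 0 passed the adjustment (0%). For Eif2ak3 the difference of responses was 0.89 ± 0.29 log2, with an interval of 0.18 to 1.60 (limma adjusted p = 0.913). For Atf6b it was 0.85 ± 0.33 (limma adjusted p = 0.933). Leaving out both 2 Gy arrays that lay farthest from the others left 0 called.

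The 9 genes with an ERSE shared a direction only in comparisons that use the non-irradiated CD169-DTR arrays. All 9 had a lower mean after irradiation in CD169-DTR (median -0.215), against 42.4% of all probe sets and 47.3% of the brighter ones. All 9 had a higher mean in non-irradiated CD169-DTR than in non-irradiated WT (median 0.24), against 57% and 55.1%. These comparisons share the same 2 arrays. In WT, 4 of the 9 were lower and 5 higher after irradiation (median 0.095), against 35% and 64.2% of all probe sets. With median centring 5 of the 9 were lower (median -0.02). Without non-irradiated CD169-DTR replicate 2, 6 of the 9 were lower after irradiation and 2 higher (median -0.12), and all 9 remained higher than WT without irradiation (median 0.115). Without non-irradiated WT replicate 2, 7 of the 9 were higher than WT. None of the 9 passed the adjustment in either comparison.

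Non-irradiated CD169-DTR replicate 2 had the highest value of all 8 arrays for 12 of the 36 genes, and for 12 of the 100 measured genes of the wider list. How often it was highest over all probe sets was not counted. It was highest for 5 of the 7 chaperones, whose median deviation from the mean of each gene was 0.502 log2 there. Sdf2l1 read 12.45 on it against 11.00 to 12.07 elsewhere, Creld2 12.19 against 11.48 to 11.76, and Asns 10.68 against 8.64 to 9.70. The lowest values fell most often on irradiated WT replicate 1 (11 genes) and irradiated CD169-DTR replicate 2 (10 genes). In the wider list they did so too (25 and 22 of 100 genes). On non-irradiated CD169-DTR replicate 2 the B cell gene Ighm read 13.96 against 7.05 to 8.99 elsewhere. Jchain read 10.39 on it, against 6.37 on the other non-irradiated CD169-DTR array and 5.36 to 11.42 over all other arrays. The mean of the 9 plasma and B cell markers beside Ighm and Jchain was 4.92 on it, within the 4.72 to 4.97 of the other arrays. The eosinophil genes Prg2 (12.93) and Epx (6.38) were highest on it, and the basophil genes Mcpt8 (5.53) and Prss34 (6.43) lowest. Erythroid markers had a mean of 9.03 there (6.64 to 8.43 elsewhere, 5 of 8 measured), and Flt3 read 8.22 (5.85 to 7.99 elsewhere). The part of these markers in the chaperone values was not tested.

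**Figure D5:**
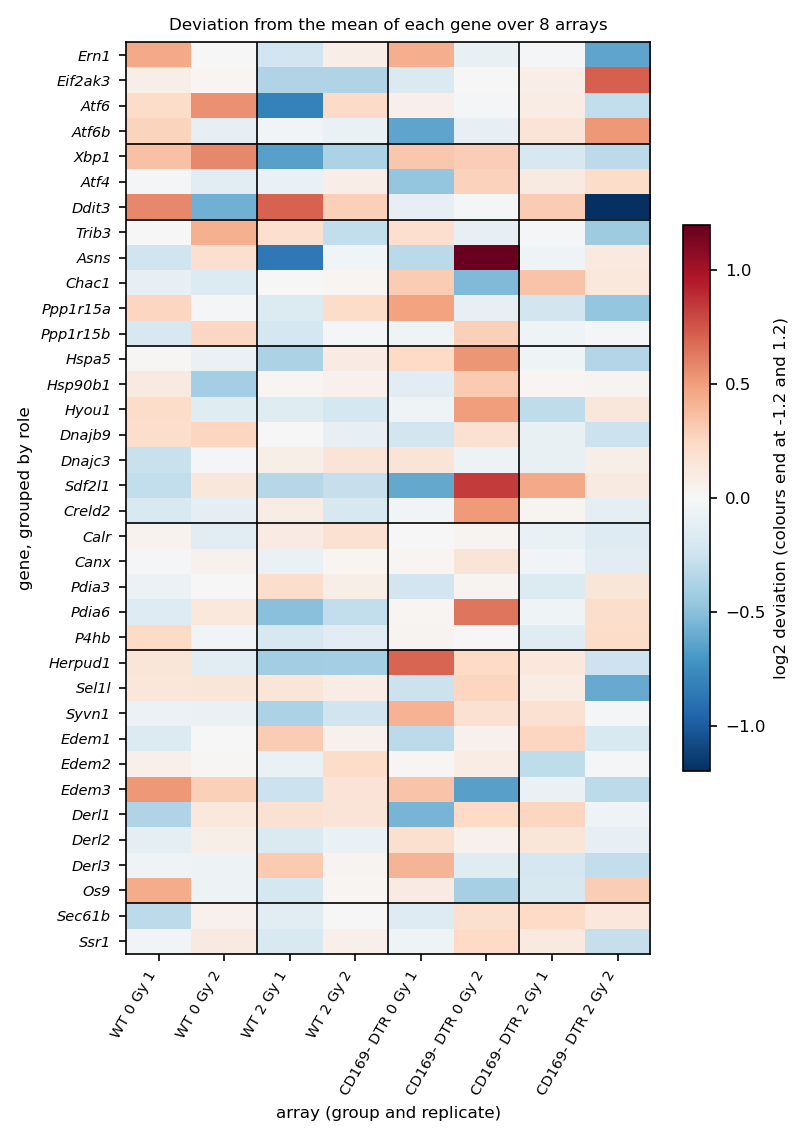
Deviation of each of the 36 measured genes from its own mean over the 8 arrays, in log2 units, with genes in rows grouped by role and arrays in columns; red is above and blue below the mean, and colours end at 1.2 log2 on either side. Non-irradiated CD169-DTR replicate 2 is red for most chaperones, and Xbp1 is blue on all 4 irradiated arrays.

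The wider list held 108 other genes of ER folding, ER degradation, translocation and trafficking, signalling and ATF4 targets, of which 100 were measured. None passed an adjusted p under 0.05 in limma in any comparison. At an unadjusted p under 0.05, 1 was higher and 8 lower after irradiation in WT (backgrounds 4.6% and 3.21%), 1 higher and 5 lower in CD169-DTR (3.24% and 3.53%), and 2 higher and 8 lower in the average (5.24% and 3.98%). In CD169-DTR against WT, 4 were higher and 2 lower without irradiation (2.49% and 1.89%), and 11 higher and 2 lower after 2 Gy (3.86% and 3.71%). Among the brighter probe sets, where most of these genes lie, the shares after irradiation were 5.05% and 5.11% in WT. They were 3.99% and 5.36% in CD169-DTR and 5.94% and 6.3% in the average. Between the genotypes they were 3.12% and 2.7% without irradiation and 5.51% and 4.9% after 2 Gy.

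Mbtps1, the site-1 protease that cuts ATF6, read 8.31 and 8.13 in non-irradiated WT, 7.25 and 7.49 in irradiated WT, 7.47 and 7.70 in non-irradiated CD169-DTR and 7.68 and 7.82 in irradiated CD169-DTR. Only the non-irradiated WT arrays were above 8. The WT response was -0.85 ± 0.15 log2 (limma adjusted p = 0.37), and the interaction was 1.02 ± 0.21 (limma adjusted p = 0.836). Nupr1, a stress-induced regulator downstream of ATF4, differed by -1.50 ± 0.43 after irradiation in CD169-DTR (limma adjusted p = 0.622). Sec61a1, the pore of the translocation channel, read 9.72 and 9.75, then 9.42 and 9.44 in WT, and 9.85 and 9.78, then 9.61 on both arrays in CD169-DTR. It was lower after irradiation in both genotypes without overlap, by -0.25 ± 0.07 on average (limma adjusted p = 0.437). Kdelr2, a receptor that returns chaperones to the ER, was 0.68 ± 0.18 log2 higher in CD169-DTR without irradiation (limma adjusted p = 0.981). Of the ATF4 targets, the transfer RNA synthetase genes Mars1 (0.80 ± 0.25) and Wars (0.67 ± 0.21) were higher in CD169-DTR after 2 Gy (adjusted p = 0.636 each).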

How the data were processed

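RNA of 8 LT-HSC samples (4 groups of 2) was hybridised to Affymetrix arrays after whole-transcript amplification, per the labels' protocols. The deposited values were made with RMA, per the submitters' processing notes, and were taken as log2 values by the convention of RMA, since the deposited table does not state the base. They were used without further normalisation. The array annotation gave 1 gene symbol to 30294 of 40161 probe sets, several to 2145 and none to 7722. Through Entrez IDs 22546 matched RefSeq (GRCm38.p6), which updated 827 symbols. A gene is represented by its probe set with the highest mean.

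A model with 4 group means was fitted to all 30294 probe sets with limma 3.58.1 (statmod 1.5.0, R 4.3.3), with 7 contrasts, two-sided tests and Benjamini-Hochberg adjustment over all probe sets within a contrast. SEs and 95% intervals come from this fit, whose precision 2 arrays a group limit. The fit was tested on simulated data with known changes.

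Lists are described by counts and medians beside all tested probe sets, and were not tested as sets. The 38 genes, the wider list and the marker lists were chosen with earlier results of these data known. Values on every array are given for the sensors, the transcription factors, Hspa5 and up to 6 listed genes per contrast with the smallest unadjusted p under 0.05. Of the wider list, up to 4 genes per contrast with the smallest p under 0.05 could be named. Sdf2l1, Creld2, Asns and Ppp1r15a were given array values after these had been seen. Promoters and motifs come from RefSeq windows of 300 bases.

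Alternatives, each changed alone, were a robust fit with a trend over intensity, the probe sets past percentile 40 by mean, all probe sets, the mean of the probe sets of a gene, cyclic loess or median centring between arrays, weights for arrays, a replicate block, a fit to the compared groups alone, and 8 fits that each omit 1 array. A call by unadjusted p under 0.05 and at least 1.5-fold was tried as well. Omission of both 2 Gy arrays that stand apart, and counts of directions under each setting, were chosen after seeing the data. The lone array of a group was then taken to vary as the other groups do.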

Additional observations from a re-analysis of the deposited data

Results flagged for a closer look

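For 4 of the listed genes, every array of 1 group moved against every array of another under the same contrast. Eif2ak3 was lower after 2 Gy in WT and higher in CD169-DTR, and likewise lower in CD169-DTR than WT without irradiation and higher after 2 Gy, with a difference of 0.89 log2 in both views (limma interaction, adjusted p = 0.913). Xbp1 was lower in CD169-DTR than WT without irradiation and higher after 2 Gy, by 0.42 log2 between the doses (limma interaction, adjusted p = 0.947). Calr was higher after 2 Gy in WT and lower in CD169-DTR, with a difference of -0.32 (limma interaction, adjusted p = 0.957), as was Derl3 with -0.62 (limma interaction, adjusted p = 0.933). None of these interactions passed the adjustment. Such opposite moves after 2 Gy were seen for 3 of 36 listed genes and for 4.44% of all tested probe sets, and between the doses for 2 of 36 and 5.22%.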

How the results depend on the processing

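In limma, the count of listed genes past an adjusted p under 0.05 was 0 in every comparison under every setting that keeps that threshold. None of the 16 single-gene differences recomputed under all settings changed sign. Among the other differences, small ones did with another scaling, such as Atf4 for 2 Gy in WT (0.07, and -0.04 with median centring) and Hspa5 for CD169-DTR against WT after 2 Gy (-0.06, and 0.01 with it). With a call by unadjusted p under 0.05 and at least 1.5-fold in its place, 1 gene was called for 2 Gy in WT, 2 in CD169-DTR, 1 in the average, 1 for CD169-DTR against WT after 2 Gy and 2 for the interaction. The counts at an unadjusted p under 0.05 were small and moved easily. For 2 Gy in WT (1 gene) the count was 4 with median centring and 3 with only the compared groups. For CD169-DTR against WT without irradiation (1 gene) it was 0 with the intensity trend, 2 with only the compared groups and 2 without both 2 Gy arrays that stood apart. After 2 Gy (2 genes) it was 1 with the intensity trend and 1 without those arrays. Without those arrays it was also 1 for 2 Gy in CD169-DTR, 1 for the average of genotypes and 0 for the interaction. With the replicate block it was 3 for 2 Gy in WT, 2 for the genotypes without irradiation and 4 after 2 Gy. The labels do not say whether a replicate number marks a shared experiment. Deviations of same-numbered arrays from their group means correlated between groups at -0.0877 to 0.159, so the block was kept as an alternative.

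The median difference for 2 Gy in WT was -0.222 with median centring. For 2 Gy in CD169-DTR it was -0.0675 without both far arrays, and for the interaction 0.08 with median centring and 0.06 without those arrays. Leaving out single arrays gave counts at an unadjusted p under 0.05 of 1 to 2 (2 Gy in WT), 1 to 8 (2 Gy in CD169-DTR), 0 to 6 and 1 to 5 (genotypes without irradiation and after 2 Gy), 0 to 5 (interaction), 1 to 9 (2 Gy average) and 1 to 7 (genotype average). The medians then lay at -0.17 to -0.0475, -0.192 to -0.0425, -0.0625 to 0.0775, -0.0175 to 0.08, -0.183 to 0.115, -0.135 to -0.065 and -0.015 to 0.0762 in the same order. The number of genes below 0 lay between 20 and 25 for 2 Gy in WT, 20 and 29 in CD169-DTR, 22 and 26 in the average, 14 and 22 between the genotypes without irradiation, and 14 and 19 after 2 Gy. The count for 2 Gy in CD169-DTR (4 genes) was 8 without non-irradiated replicate 2, 7 without irradiated replicate 1 and 1 without irradiated replicate 2. The count for the genotypes without irradiation was 0 without either non-irradiated WT array and 6 without either CD169-DTR one. The cause of these shifts was not tested.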
